A study of Arabidopsis thaliana with 4 samples.

Results

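The transcripts described here are those that gave the highest hybridization signals in inflorescence tips of Arabidopsis thaliana. They were chosen as the probe sets with a signal of at least 2000 array units on both arrays of the control line Col-3 gl1, leaving out array controls, probe sets annotated to plastid or mitochondrial genes, and 2 unnamed probe sets that the rule excludes. Of 22746 probe sets on the array without its controls, 194 met this rule. The study compared 2 lines on Affymetrix ATH1 arrays. The mutant was tmm-1, in which TMM, a receptor-like protein that spaces stomata, is defective, and the control was Col-3 gl1, which carries a mutation in GL1, a regulator of leaf hairs. Each line had 2 arrays, each hybridized with a pool of inflorescence tips. All plants were at growth stage 6.10, an early flowering stage, and were grown at 22 °C and 70% humidity with 16 h of light. The array titles abbreviate the name of the control line in another way, and its source name is used here. Whether gl1 is present in the tmm-1 plants is not stated in the labels. Nothing there says that each pool was a separate culture, so p-values measure only the spread between these pools, which may be technical. The values are MAS5 signals on a linear scale, scaled by the authors so that every array has the same trimmed mean.

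The choice rests on the Col-3 gl1 signals themselves, and those signals are also the control side of the comparison with tmm-1. High signals in the control and differences from the control are therefore given as descriptions, without a test. The signal of a probe set depends on how well its probes bind as well as on the amount of transcript, so the signals do not rank the genes by abundance, and no gene's level is set against another's here. In tissue such as this, fewer cells of a type and less RNA per cell cannot be told apart.

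The ribosome of the cytosol is built from a large and a small subunit, each made of ribosomal RNA and many small proteins. In Arabidopsis nearly every ribosomal protein is encoded by several very similar genes on different chromosomes. Dividing tissue such as an inflorescence tip makes new ribosomes throughout, and transcripts for ribosomal proteins are known to be among the most plentiful of growing plant tissue. Some proteins of the large subunit line the peptide exit tunnel or lie by its mouth, and those of the stalk recruit the factors that drive elongation. Some proteins of the small subunit lie along the path of the messenger RNA.

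The members' signals ran from 2012 to 7071 with a median of 3060 on Col-3 gl1 replicate 1, and from 2014 to 6317 with a median of 2956 on replicate 2. On tmm-1 replicate 1 they ran from 1782 to 6468 with a median of 3088, and on tmm-1 replicate 2 from 1615 to 6654 with a median of 2828. They held 19.6% and 19.1% of the summed signal of the control arrays and 19.6% and 18.5% of that of tmm-1 replicates 1 and 2. Of the 12 listed flower and inflorescence genes that could serve as a check of the tissue, UFO alone had a named probe set, and its signals were 4.35 or less on all 4 arrays. Of 6 listed pollen and tapetum genes, AMS, AT5G45880 and AT5G07230 had one, with signals of 0.484 to 14.9. The root gene PYK10 was at 3.81 to 21.1 and the leaf photosynthesis gene RCA at 1036 to 1555. None of these floral genes thus gave a high signal, and the other 14 listed were not analysed here.

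The annotation assigned 73 of the 194 members to a single gene and 21 to several genes, and it did not list the other 100. Of the 73, 56 (76.7%) encode proteins of the cytosolic ribosome, against 0.974% of the 13444 named probe sets not annotated to an organelle. Of the 21 probe sets annotated to several genes, 16 had only ribosomal protein genes among their loci. The annotation did not list 8730 of the 22746 probe sets, and which genes they stand for is not known here. The share of ribosomal proteins among the 73 is therefore not their share among all 194. Whether any of the 100 unlisted probe sets stands for an organelle gene is not known here.

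The 56 ribosomal genes encode 40 different proteins, with 32 genes for the body of the large subunit, 5 for its stalk and 19 for the small subunit. As a group they differed little between the lines. The fitted log2 difference, tmm-1 minus Col-3 gl1, had a median of -0.04 and ran from -0.35 to 0.23, with 22 genes above 0 and 34 below. Those counts moved with the scaling and with single arrays. They were 5 and 51 after scaling every array to the same median signal, 39 and 17 without tmm-1 replicate 2, and 29 and 27 without Col-3 gl1 replicate 1. Over all 16960 probe sets tested the median was 0.03. Of the 56, limma called 0 at an adjusted p below 0.05 over all probe sets tested, 1 had an unadjusted p below 0.05, and 0.613% of all probe sets tested were called. Since the rule used the control signals, nothing is read from that count.

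**Figure D1:**
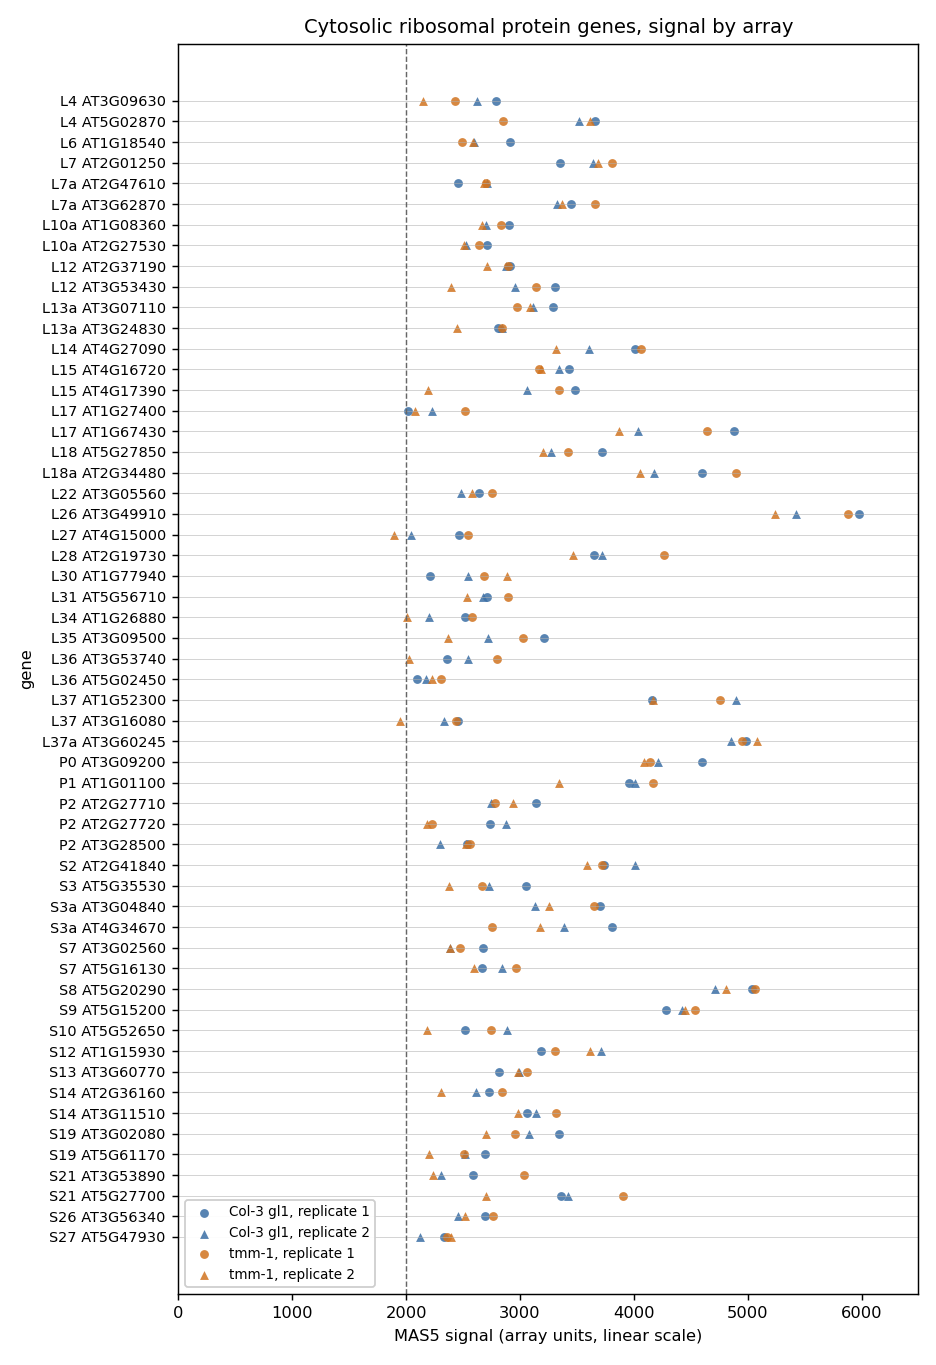
Signal of the 56 named genes for cytosolic ribosomal proteins on each of the 4 arrays, in array units on a linear axis, ordered by large subunit, stalk and small subunit. Blue marks are Col-3 gl1, orange marks are tmm-1, circles are replicate 1 and triangles replicate 2. The dashed line is the threshold of 2000, which the rule required of the blue marks only. Orange triangles lie left of the orange circles in 46 of the 56 rows.

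Among the large subunit genes, L26 (AT3G49910), whose protein lies by the mouth of the exit tunnel, had signals of 5979 and 5422 in Col-3 gl1 and 5878 and 5244 in tmm-1. The lines overlapped, and within each line replicate 1 was the higher. L37a (AT3G60245), a zinc-binding protein, had 4986 and 4854 in the control and 4947 and 5082 in tmm-1, a log2 difference of 0.03 ± 0.13 (SE). Genes with the highest difference in tmm-1 included L30 (AT1G77940), whose yeast counterpart binds its own transcript and blocks its splicing.

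L30 had signals of 2209 and 2540 in the control and 2682 and 2886 in tmm-1, a log2 difference of 0.23 ± 0.14. Both tmm-1 arrays lay above both control arrays. L7 (AT2G01250) also lay higher on both tmm-1 arrays, with 3807 and 3688 against 3349 and 3637, and L17 (AT1G27400), a lining protein of the exit tunnel, overlapped between the lines with 2514 and 2075 against 2012 and 2227. Their log2 differences were 0.10 ± 0.14 and 0.11 ± 0.14.

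On the lower side were the tunnel protein L4 and L15. L4 (AT3G09630) had 2788 and 2621 in the control and 2433 and 2144 in tmm-1, so that the lines did not overlap, with a log2 difference of -0.24 ± 0.14. L15 (AT4G17390) had 3486 and 3058 in the control and 3341 and 2193 in tmm-1. Its difference of -0.27 ± 0.16 came from tmm-1 replicate 2, since without that array it was 0.03. Without tmm-1 replicate 1 it was -0.57, and limma then called it. Its highest signal was 1.59 times its lowest, the widest span among the 73 named genes.

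The stalk of the large subunit was represented by 5 genes, for P0, P1 and P2. The P2 gene AT2G27720 had the largest fall of all named members. Its signals were 2737 and 2874 in Col-3 gl1 and 2225 and 2183 in tmm-1, with means of 2805 ± 97.3 (SD, n = 2) and 2204 ± 30.1 and a log2 difference of -0.35 ± 0.13 (SE). Both tmm-1 arrays lay below both control arrays, and the gap between the lines was wider than the gap between pools of either line. In the other P2 genes the lines overlapped.

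The P2 gene AT2G27710, its direct neighbour on chromosome 2, had 3141 and 2749 in the control and 2779 and 2938 in tmm-1, a difference of -0.04 ± 0.14. The third, AT3G28500, had 2534 and 2294 against 2560 and 2522, a difference of 0.08 ± 0.14. P0 (AT3G09200), which anchors the stalk, and P1 (AT1G01100) were both at -0.10, with standard errors of 0.14. P0 had 4599 and 4212 in the control and 4142 and 4093 in tmm-1, so that the lines did not overlap, whereas the P1 signals of 3958 and 4014 in the control lay between 4166 and 3341 in tmm-1.

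Of the small subunit genes, S8 (AT5G20290) had signals of 5042 and 4709 in the control and 5067 and 4807 in tmm-1, a log2 difference of 0.02 ± 0.14. S9 (AT5G15200), which with S2 and S3 lines the entry path of the messenger RNA, had 4283 and 4425 against 4540 and 4449. Over the 19 genes of this subunit the differences ran from -0.28 to 0.09 with a median of 0.0079, and 10 were above 0 and 9 below, or 2 and 17 after scaling to the median signal. The lowest of them was S3a (AT4G34670), with 3805 and 3385 in the control and 2752 and 3175 in tmm-1, a difference of -0.28 ± 0.14 with no overlap. S3 (AT5G35530) had 3055 and 2727 in the control and 2669 and 2373 in tmm-1, again without overlap and at -0.20 ± 0.14.

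For 15 ribosomal proteins, 2 or more genes were members, so that genes for the same protein could be set side by side by their differences. The gap between the lowest and the highest log2 difference of a protein's genes had a median of 0.12 and ran from 0.0016 to 0.42. Differences of the ribosomal members carried standard errors of 0.13 to 0.16, above that median gap, so the order of the proteins is only a description. L10a had the closest pair, with AT1G08360 at -0.03 and PGY1 (AT2G27530), known from leaf polarity mutants, at -0.02. L7a followed at 0.05 and 0.06, and S19 had both genes lower, at -0.18 and -0.15. The widest gaps belonged to P2 and to S3a, whose second gene, AT3G04840, was at 0.02 ± 0.14 beside -0.28 ± 0.14. The coding sequences of such genes are very alike, and whether a probe set also binds the other gene's transcript was not tested.

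**Figure D2:**
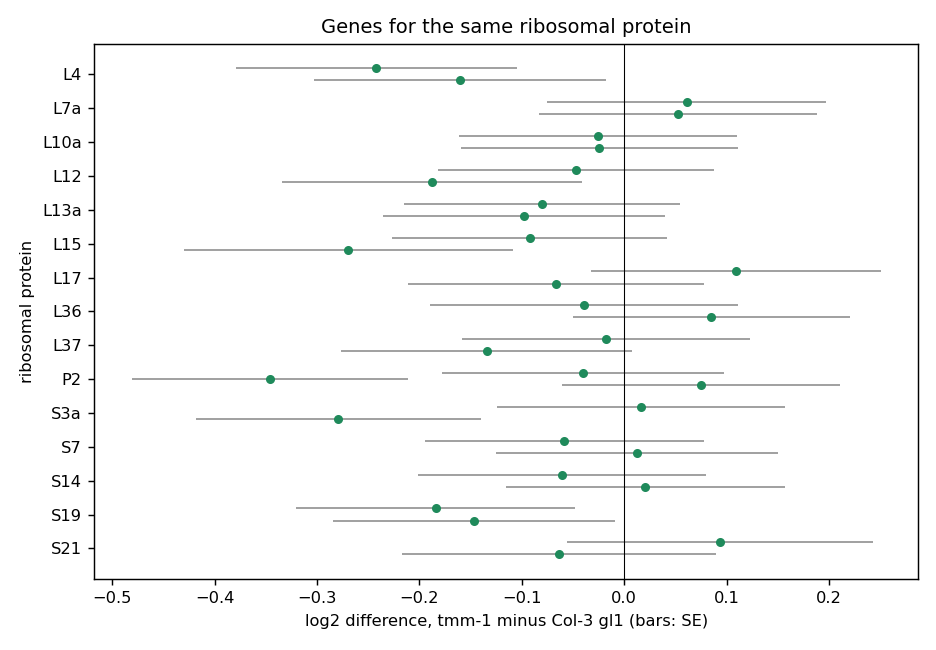
Fitted log2 difference, tmm-1 minus Col-3 gl1, for each gene of the 15 ribosomal proteins with 2 or more member genes. Points are genes and bars are standard errors from limma. The points of L10a and L7a nearly coincide, and those of P2 spread from -0.35 to 0.08.

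The rest of the family puts these genes in context. A list of 225 genes for 79 cytosolic ribosomal proteins, written from general knowledge of the loci, gave 131 named probe sets, of which the 56 members are 42.7%. The other 75 had mean control signals of 1.08 to 2364 with a median of 760.1. Of these, 25 were at 1000 or more on both control arrays and 17 were under 100 on both. Of the 131 probe sets, 125 were bright enough to be tested and limma called 0 higher and 0 lower, with 0.242% of all probe sets tested called higher and 0.371% called lower. The 69 tested probe sets outside the members had a median log2 difference of -0.04 and ran from -0.69 to 0.39, and 2 had an unadjusted p below 0.05.

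The 17 named members outside the cytosolic ribosome covered protein synthesis, photosynthesis, central metabolism, cell wall and defence. Their log2 differences had a median of -0.05, with 5 above 0 and 12 below (2 and 15 after scaling to the median signal), and limma called 0. AT5G19510, a subunit of the exchange factor that recharges elongation factor EF1A, had 3365 and 3650 in the control and 3914 and 3004 in tmm-1, so that both control values lay between the tmm-1 values. AT2G43030, for protein L3 of the plastid ribosome, had 2273 and 2239 against 2255 and 1829, the latter below the threshold.

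Both photosynthesis genes had lower mean signals in tmm-1. LHCB4.1 (AT5G01530), for the antenna protein CP29 of photosystem II, had 2551 and 2297 in Col-3 gl1 and 1800 and 2206 in tmm-1. The lines did not overlap, but the tmm-1 pools lay as far apart as the lines, and the difference of -0.28 ± 0.14 was -0.13 when tmm-1 replicate 1 was left out and -0.43 when replicate 2 was. AT2G26500, for the PetM subunit of the cytochrome b6f complex, had 2164 and 2192 in the control and 2128 and 1823 in tmm-1, at -0.14 ± 0.14, and its difference was -0.26 without tmm-1 replicate 1 and -0.033 without replicate 2. LHCB4.2 and LHCB4.3 of the same antenna family were not members, with differences of -0.04 ± 0.15 and -0.0057 ± 0.16.

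In metabolism, GAPC2 (AT1G13440), the glycolytic glyceraldehyde-3-phosphate dehydrogenase of the cytosol, had 3187 and 2896 in the control and 3503 and 3194 in tmm-1. Both tmm-1 arrays were above both control arrays, with a difference of 0.14 ± 0.14. SAMDC (AT3G02470), which makes the aminopropyl donor for polyamines, had 3238 and 3140 in the control and 2995 and 3219 in tmm-1. AT3G58610, the ketol-acid reductoisomerase of branched-chain amino acid synthesis, had 2461 and 2459 against 2458 and 2287. The class III peroxidase gene PRXR1 (AT4G21960) had 2035 and 2087 in the control, just inside the threshold, and 2346 and 1918 in tmm-1, on either side of them.

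Among the genes for secreted proteins, ECS1 (AT1G31580), for a small protein of the cell wall, had 4198 and 4239 in the control and 3515 and 4743 in tmm-1, so that the tmm-1 pools lay on either side of the control. AT1G78040, of the Ole e 1 pollen allergen family, was nearly level at 3792 and 3664 against 3814 and 3583. The defensin LCR69 (AT2G02100) had 4061 and 2961 in the control and 2859 and 3077 in tmm-1, and its difference of -0.22 ± 0.15 rested on Col-3 gl1 replicate 1, since it was 0.0026 without that array. The defensin LCR68 (AT2G02130), a close neighbour of LCR69 with 2 genes between them, had both tmm-1 arrays above both control arrays, with 2128 and 2160 in the control and 2390 and 2392 in tmm-1, a difference of 0.16 ± 0.13. The other 11 named defensin genes were not members. AT2G28790, a thaumatin-like protein gene, had 2569 and 2284 against 2677 and 2447, a difference of 0.08 ± 0.14.

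Of the remaining genes, AT1G62480, for a protein related to vacuolar calcium-binding proteins, had 4724 and 4482 in the control and 4428 and 4008 in tmm-1. AT3G15450, for a protein with YGL and LRDR motifs, had 3527 and 4178 against 3227 and 3475. In both, all tmm-1 signals lay below all control signals, with differences of -0.13 ± 0.14 and -0.20 ± 0.14. The first was -0.055 without tmm-1 replicate 2, and the second was -0.075 without Col-3 gl1 replicate 2. AT1G09310, of the DUF538 family, had 3098 and 2415 in the control and 2754 and 2409 in tmm-1. AT2G25510, a gene of unknown function, had 3697 and 3874 against 3519 and 4096, with a difference of 0.0047 ± 0.14.

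**Figure D3:**
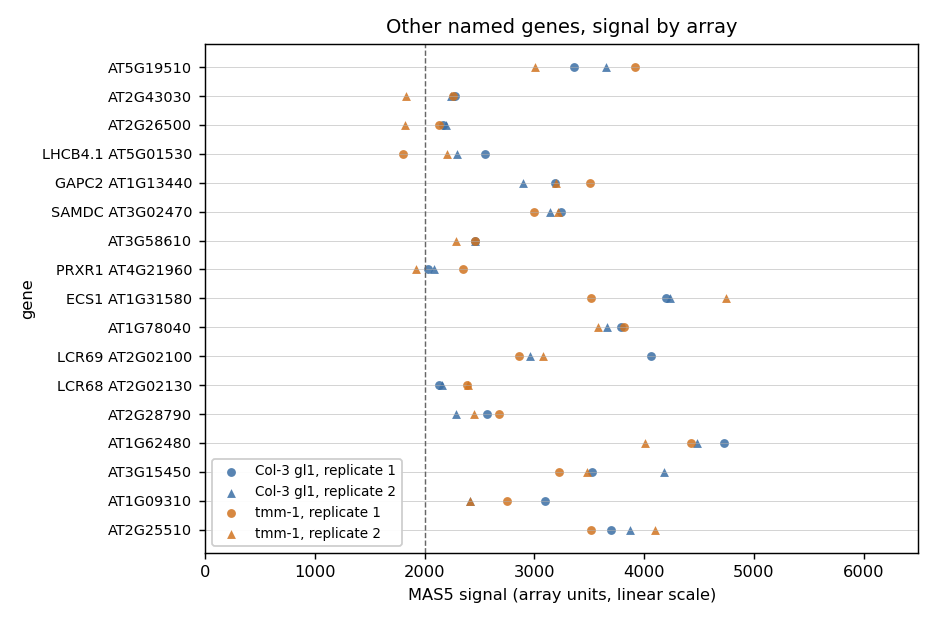
Signal of the 17 named genes outside the cytosolic ribosome on each of the 4 arrays, in array units on a linear axis. Blue marks are Col-3 gl1, orange marks are tmm-1, circles are replicate 1 and triangles replicate 2, and the dashed line is the threshold of 2000. The tmm-1 pools of ECS1, at 3515 and 4743, and the Col-3 gl1 pools of LCR69, at 4061 and 2961, lie far apart.

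Taken over all 194 members, signals in tmm-1 stayed close to those in the control. The log2 differences had a median of -0.03, with quartiles of -0.10 and 0.05, and ran from -0.36 to 0.25. All 194 lay within 0.5 on the log2 scale, against 91.2% of all probe sets tested and 96.0% of the 882 at 500 to 2000 on both control arrays. Within 0.2 were 174 members (89.7%), against 57.6% and 73.6%. The range and the share within 0.5 depend on the rule. The 2 unnamed probe sets that it leaves out lay at -2.48 and -1.23, and with them 98.98% were within 0.5. The highest of a member's 4 signals was 1.19 times the lowest at the median and under 1.5 times in 190 of 194, or 97.9%. At 500 to 2000 on both control arrays the median was 1.24 times and 87.9% were under 1.5, and over all probe sets tested these were 1.42 times and 57.7%. These spans include the control signals that the rule used, and the spread between pools of tmm-1 also fell with signal. The median absolute log2 difference between those pools was 0.14 for members, 0.15 at 500 to 2000 and 0.22 over all probe sets tested. Steadiness beyond that of bright probe sets as such was not tested. The fitted differences carried standard errors of 0.13 to 0.17, and their 95% intervals lay between -0.69 and 0.55.

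Limma called 0 of the 194 members, with 6 at an unadjusted p below 0.05. Over all probe sets tested, 0.613% were called and 8.81% were below 0.05. Since the rule used the control signals, nothing is read from these counts of members. The count of 0 also depends on the 2 unnamed probe sets that the rule leaves out. They were past the signal threshold, and limma called both lower in tmm-1, at -2.48 (adjusted p = 6.8e-12) and -1.23 (adjusted p = 8.5e-06). With them the count was 2 of 196, or 1.02%. The tmm-1 and control signals did not overlap in 57 of the 194 members (29.4%), with tmm-1 lower in 38 and higher in 19. Choice on the control arrays favours lower tmm-1 values. Over all probe sets tested the share was 38.3%, with 16.8% lower and 21.5% higher. At 500 to 2000 on both control arrays it was 40.6%, with 215 lower and 143 higher. After scaling to the median signal, 61 members were lower without overlap and 1 higher. The share over all probe sets was not taken there. That scaling moved the median difference of all probe sets from 0.03 to -0.05, so nothing is read from these counts. With members chosen instead on the tmm-1 arrays, at 2000 or more on both, there were 185, of which 175 were among the 194, and their median difference was -0.01.

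**Figure D4:**
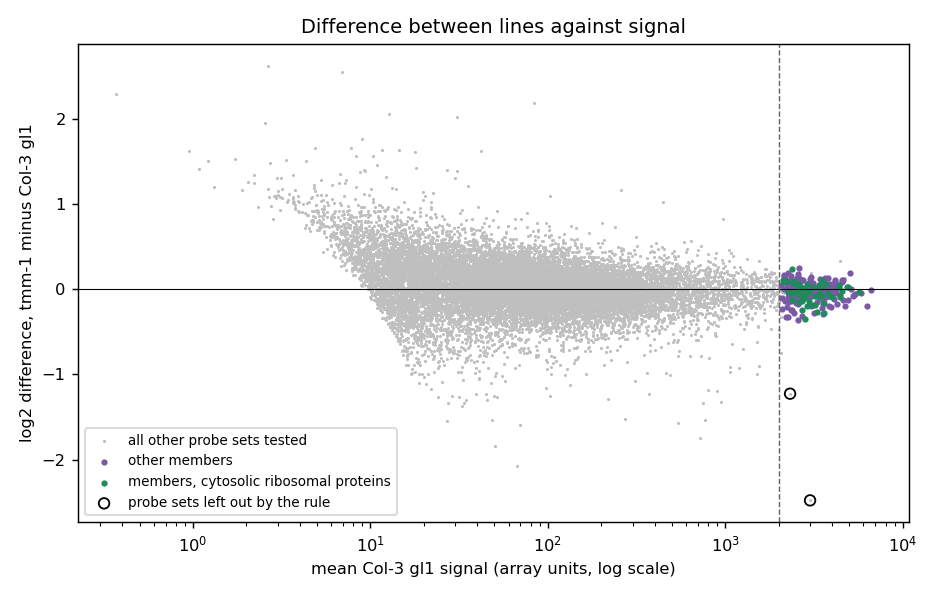
Fitted log2 difference, tmm-1 minus Col-3 gl1, against the mean Col-3 gl1 signal on a log axis for all 16960 probe sets tested. Green points are the 56 named ribosomal members, purple points the other 138 members, and open circles the 2 probe sets that the rule leaves out. Grey points right of the dashed line at 2000 include organelle genes and probe sets with a single control array under 2000. All members lie between -0.36 and 0.25.

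The members also shifted between the pools of tmm-1, arrays that the rule did not use. Ribosomal genes were lower on tmm-1 replicate 2 than on replicate 1 in 46 of 56 cases (82.1%), with a median log2 difference of -0.13. It also held for 144 of all 194 members (74.2%), for 17 of the 21 annotated to several genes, for 71 of the 100 unlisted ones and for 10 of the other 17 named genes. It held for 65.1% of the probe sets at 500 to 2000 and for 44.9% of all probe sets tested, with a median of 0.04. Between the control pools, 37 of the 56 ribosomal genes were lower on replicate 2, with a median of -0.08. The bright end of tmm-1 replicate 2 as a whole lay lower. Its 99th percentile was 1891, where the other 3 arrays had 1954 to 2053, while its median signal of 45.5 was above the 40.7 to 41.4 of the others. After quantile normalization, which gives all arrays the same distribution, 28 of the 56 were lower on tmm-1 replicate 2, with a median of 0.00094. After scaling to the median signal 54 of the 56 were lower there, with a median of -0.27.

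**Figure D5:**
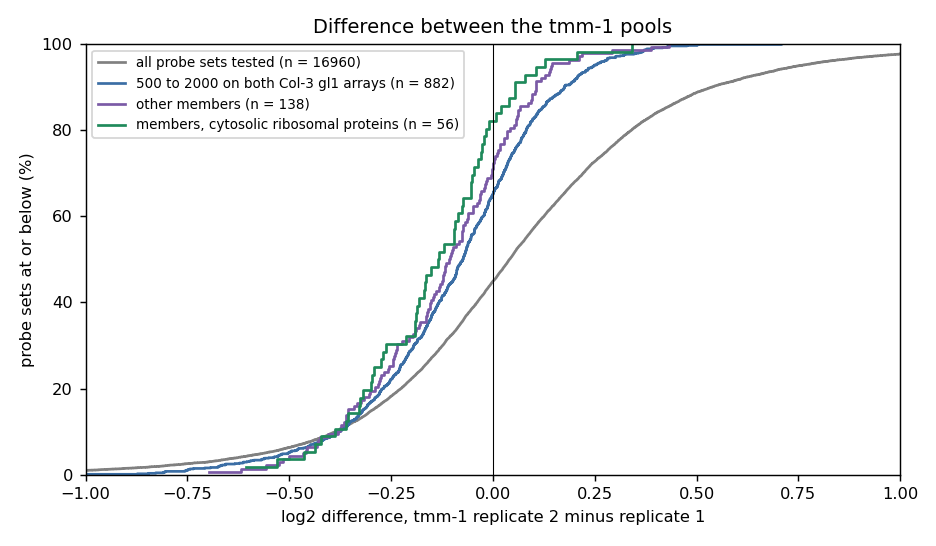
Cumulative share of probe sets against the log2 difference between the tmm-1 pools, replicate 2 minus replicate 1. Lines show all probe sets tested, those at 500 to 2000 on both control arrays, the 138 other members and the 56 ribosomal members. At 0 the ribosomal line stands at 82.1% and the line of all probe sets at 44.9%.

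Fewer probe sets reached 2000 on tmm-1 replicate 2 than on the other arrays. Of 218 eligible probe sets at 2000 or more on Col-3 gl1 replicate 1, 89.0% also reached it on Col-3 gl1 replicate 2, 91.7% on tmm-1 replicate 1 and 84.4% on tmm-1 replicate 2. All 4 arrays were at 2000 or more for 175 of the 194 members and for 67 of the 73 named genes. Of the other 19 members, 14 were below 2000 on tmm-1 replicate 2 alone, 2 on replicate 1 alone and 3 on both. Just inside the threshold by their lower control signal were L17 (AT1G27400) at 2012 and 2 unnamed probe sets at 2013 and 2014. Just outside were AT1G54410, a dehydrin gene, at 1987 and 2 unnamed probe sets at 1999 and 1996.

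The 121 members without a single gene also all lay within 0.5. The 21 annotated to several genes had a median log2 difference of 0.0012 and a range of -0.23 to 0.19. The 100 unlisted ones had a median of -0.02 and ran from -0.36 to 0.25. The lowest of them had 2742 and 2388 in the control and 2416 and 1640 in tmm-1, and limma called it without tmm-1 replicate 1. The highest had 2521 and 2696 against 3599 and 2671. In both, a single tmm-1 array stood apart from the other 3.

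Features that the rule did not use were also described for the named members. Their genes were short, with a median length of 1591 bp in the RefSeq annotation of TAIR10.1, introns and untranslated parts included, against 2122 bp over 13367 named nuclear probe sets. Ribosomal members had a median of 1631 bp, the other named members 1141 bp, and the 75 ribosomal probe sets outside the members 1383 bp. Within the ribosomal family, members thus had the longer median. By chromosome, 23 of the 73 named members (31.5%) were on chromosome 3, which holds 20.5% of the named probe sets, and 6 (8.22%) on chromosome 4, which holds 14.7%. Chromosomes 1, 2 and 5 held 14, 16 and 14. As 56 of the 73 named members are ribosomal genes, these shares are not those of bright transcripts in general. The chromosome shares of the whole ribosomal family were not set beside them. Probe sets with the suffix _s_at, which marks probes shared by several transcripts, made up 34 of the 194 members (17.5%) against 4.11% of the array.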

How the data were processed

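Total RNA of pooled inflorescence tips was labelled by a one-cycle biotin method, per the labels' protocols. The authors deposited one intensity per probe set, and MAS5 and GCOS are named in the submitters' processing notes. They were not scaled again. Global scaling removes overall differences in RNA content. A pseudocount of 10 was added, and log2 values of the 16960 non-control probe sets with a mean signal of at least 10 were fitted with limma 3.58.1 in R 4.3.3 (lmFit, eBayes with an intensity trend, two-sided, Benjamini-Hochberg), calling at an adjusted p below 0.05. Standard errors rest mostly on the trend, with 23.6 prior degrees of freedom. The model was tested on simulated data. Their noise was independent between arrays, so a shift of a whole array was not covered. With 2 arrays a line, the smallest two-sided p of an exact permutation test is 0.33. The number of arrays limits the precision.

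Genes were named through the platform annotation and RefSeq genes. Groups were set by hand from knowledge of the loci, since the tables give no products. Members and lists were chosen with earlier results of these data known. The genes given values were, per group, the 3 with the highest control mean, then called members, the 5 largest differences each way, and the 3 probe sets on each side of the threshold. Further ribosomal genes were chosen after their values were seen. Promoter and protein sequences were not analysed here. Detection calls were not used here. Replicate numbers are the pool numbers of the labels.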

Additional observations from a re-analysis of the deposited data

How the results depend on the processing

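The count of members called by limma was 0 in every alternative run, except without tmm-1 replicate 1 (2, AT4G17390 and an unlisted probe set), with a threshold of 1500 (2 of 290) and with the 2 left-out probe sets (2 of 196), the last chosen after seeing the data. A threshold of 3000 left 88 members. The median log2 difference was -0.11 after scaling to the median signal, where that of all probe sets was -0.05, and with an array left out it ran from -0.09 to 0.04, turning sign without tmm-1 replicate 2 or Col-3 gl1 replicate 1. Over all probe sets limma called 104, but 69 after quantile normalization, 17 without a signal filter, 0 without an intensity trend (1293 below an unadjusted p of 0.05), 162 at an adjusted p below 0.1, and 77 to 662 with an array left out. With an array left out, members called ran from 0 to 2. Adding the pool number as a replicate block gave 191 calls in all, 0 of them members. With the block, limma put 15 members below an unadjusted p of 0.05, against 6 in the main model. Deviations of same-numbered arrays correlated at 0.032 over all probe sets, so the block was not used in the main model. Over the members alone they correlated at 0.23. Scaling to the median left 27 members above 0 and 167 below, against 80 and 114, and turned the sign of 53, among them the named AT3G60245 (-0.062), AT5G20290 (-0.071), AT2G28790 (-0.0099), PRXR1 (-0.047) and AT2G25510 (-0.084). Without tmm-1 replicate 2 they were 120 and 74. With an array left out, the sign of 13 of 27 named genes turned, in SAMDC (-0.090 to 0.014), ECS1 (-0.26 to 0.17), AT1G78040 (-0.057 to 0.033), AT3G49910 (-0.12 to 0.046), AT5G20290 (-0.031 to 0.068), LCR69 (-0.45 to 0.0026), AT2G28790 (-0.0056 to 0.16), PRXR1 (-0.10 to 0.19), AT5G19510 (-0.22 to 0.16), AT2G25510 (-0.10 to 0.11), AT1G09310 (-0.27 to 0.093), AT4G17390 (-0.57 to 0.033) and AT1G27400 (-0.028 to 0.25). Of the other 14, all but LCR68 and AT2G27720 moved by over 1.5 times. None of these was called in the main model, and the cause was not tested. With an array left out, the lone array of a line is assumed to vary like the other line.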
